A study of Homo sapiens with 8 samples.

Results

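The DNA damage repair and Fanconi genes described here are 36 genes taken by name from a fixed list; no threshold on their values was used to pick them, though the list was drawn up with earlier results of these data known. All 36 were among the 19035 gene symbols measured, and all 36 had a mean of at least 1 TPM (a transcript level scaled for length and to a common total) over the 6 libraries. They are therefore 36 of 11885 genes tested. The cells were KPL-1, a human breast cancer line listed in cell line registries as a derivative of MCF-7, and all carried a Cas9 that doxycycline induces (iCas9). In 3 libraries the cells carried a guide against SETD1A (sgSETD1A, labelled as knockout), a histone methyltransferase of lysine 4 of histone H3, and in 3 libraries an empty guide vector (sgEmpty, labelled wild type). Both groups came from day 7 of doxycycline. The labels do not say whether replicates were separate cultures, nor whether the line is 1 clone, so every p-value reflects library-to-library spread alone, and that spread may be technical.

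When both strands of DNA are covalently joined, a replication fork stalls. In the Fanconi pathway a core complex with the ubiquitin ligase FANCL and its conjugating enzyme UBE2T attaches ubiquitin to the FANCI-FANCD2 pair, which brings in nucleases that cut around the lesion. The break that results is repaired by homologous recombination, in which BRCA1, PALB2 and BRCA2 act together, while the MRE11-RAD50-NBN complex and the kinases ATM and ATR detect damage and signal it. Cyclin K, which the title of the study links to SETD1A, pairs with the transcription kinase CDK12, known for sustaining the expression of long repair genes such as BRCA1, ATR, FANCI and FANCD2.

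The targeted transcript was lower in each sgSETD1A library. SETD1A averaged 10.4 ± 0.972 TPM in sgSETD1A and 17.7 ± 0.309 TPM in sgEmpty (SD, n = 3 each), a log2 difference of -0.71 (SE 0.071; limma adjusted p = 9.13e-05). In bulk RNA a loss in some of the cells and a lower level in all of them cannot be told apart. CCNK, which encodes cyclin K, averaged 97.8 ± 1.45 TPM in sgSETD1A and 85.5 ± 2.58 TPM in sgEmpty (log2 difference 0.19, limma adjusted p = 0.00354). All 8 breast epithelial markers were at 1 TPM or more, against 1 of 5 immune, 1 of 5 fibroblast and 0 of 4 endothelial markers. Of the fibroblast markers, the highest averaged 3.10 TPM over the libraries, and DCN was at 0 in every library. Between 11857 and 11961 genes per sgSETD1A library and 11769 and 11828 per sgEmpty library reached 1 TPM, and the sequencing depth is unknown. Along principal component 2, with 14.3% of the variance, sgSETD1A replicate 1 lay at 12.8, apart from its group at -5.61 and -6.55.

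The repair genes moved both ways, mostly by small amounts. With TPM as deposited, 9 of the 36 rose in sgSETD1A, 6 fell and 21 did not pass the test, a limma adjusted p under 0.05 over all genes tested. Of all 11885 genes 28.0% were called higher and 13.5% lower. The median log2 difference of the members was 0.051, against 0.073 over all genes, and only RAD50 differed by more than 0.5. The groups of 3 libraries did not overlap for 22 of the 36 members and for 53.7% of all genes. Summed over the list, transcripts stood between 897 and 903 TPM in sgSETD1A libraries and between 855 and 874 TPM in sgEmpty libraries. This sum keeps the deposited scaling, in which the median of all genes lay at 0.073. It leans on abundant members such as RAD51C, which averaged 261 TPM over the 6 libraries and was not called.

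**Figure D1:**
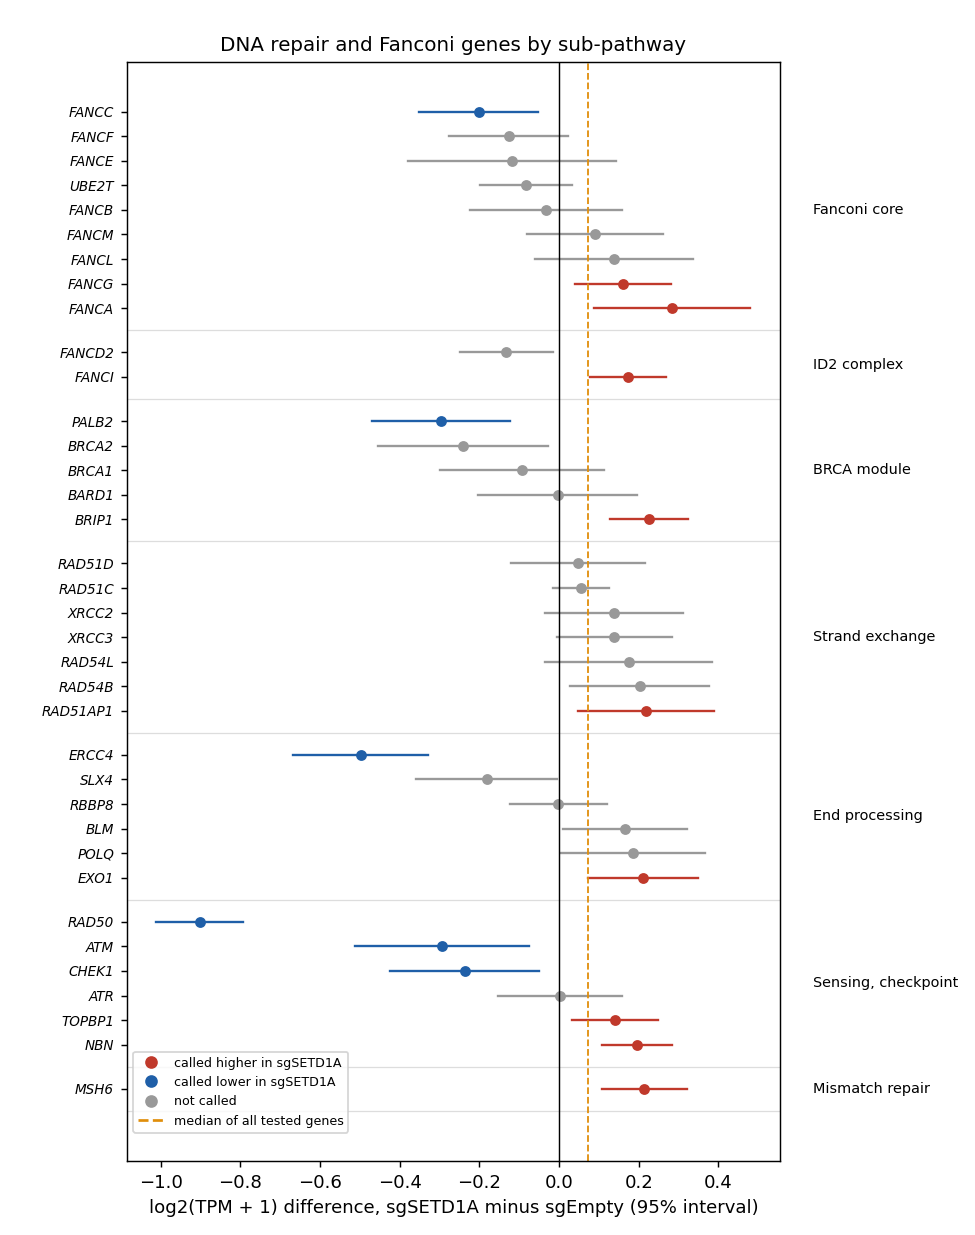
Difference of each of the 36 genes between sgSETD1A and sgEmpty on the log2(TPM + 1) scale, with 95% intervals from limma (n = 3 libraries each), ordered by sub-pathway. RAD50 lies farthest from 0 at -0.90, the 9 genes called higher lie between 0.14 and 0.28, and the dashed line marks the median of all tested genes, 0.073.

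Fewer of the rises than of the falls were called under another scaling of the libraries. Median-ratio rescaling, which brought the median difference of all genes to 0.004, left 2 members called higher and 10 lower, where 15.5% and 19.2% of all genes were called. After quantile normalization, 4 members were higher and 9 lower, where 18.0% and 17.3% of all genes were called. All 6 falls were called under each of the 3 scalings: RAD50, ERCC4, PALB2, ATM, CHEK1 and FANCC. Of the 9 rises, those of BRIP1 and NBN were. Of the members not called in the deposited TPM, FANCD2, BRCA2 and SLX4 were called lower after rescaling by either method, and UBE2T by the median-ratio method. No called member changed sign under any alternative.

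**Figure D2:**
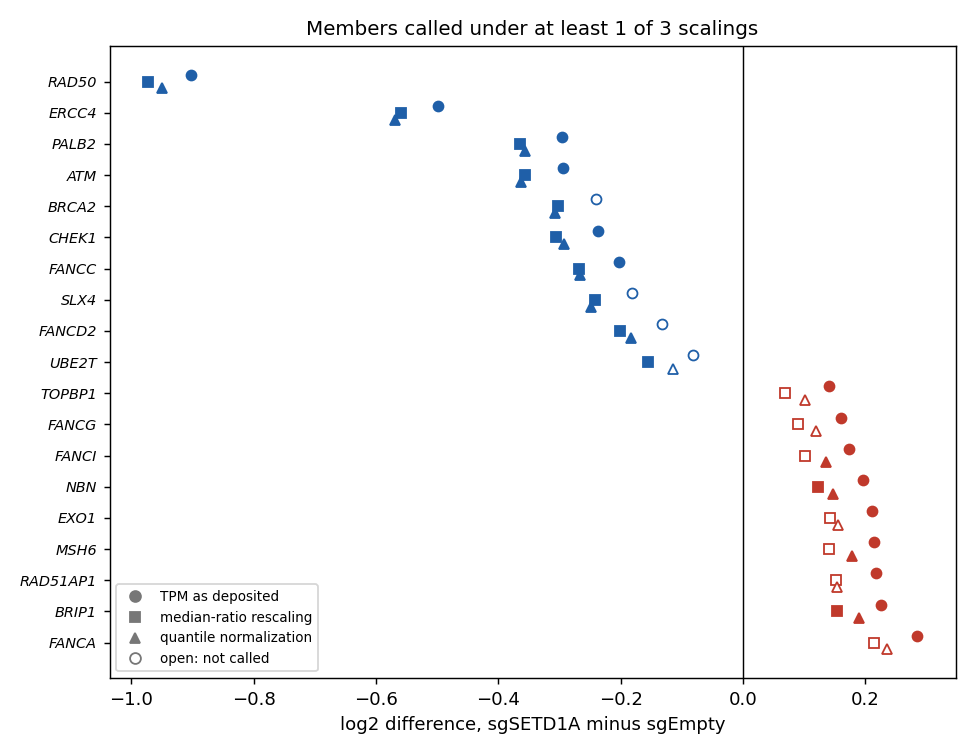
Log2 difference, sgSETD1A minus sgEmpty, of the members called under at least 1 of 3 scalings (circles, TPM as deposited; squares, median-ratio rescaling; triangles, quantile normalization; filled symbols, called). Both rescalings move each gene to the left, so that members with falls stay or become called and most members with rises become open symbols.

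Calls of 4 members held in every alternative in which they were tested: RAD50 and ERCC4, which fell, and BRIP1 and NBN, which rose. RAD50, ERCC4 and BRIP1 are shown here by the 250 bases before their RefSeq starts (GRCh38.p14), to set the promoters of members with firm calls in either direction beside one another. RAD50 lies on the plus strand (chr5:132556727-132556976), ERCC4 on the plus strand (chr16:13919904-13920153) and BRIP1 on the minus strand (chr17:61863529-61863778). Capitals mark matches, on either strand, to motifs of factors common in promoters of replication and repair genes: ETS (CCGGAAG), NF-Y (CCAAT) and the cell cycle element CHR (TTTGAA or TTCGAA).
RAD50: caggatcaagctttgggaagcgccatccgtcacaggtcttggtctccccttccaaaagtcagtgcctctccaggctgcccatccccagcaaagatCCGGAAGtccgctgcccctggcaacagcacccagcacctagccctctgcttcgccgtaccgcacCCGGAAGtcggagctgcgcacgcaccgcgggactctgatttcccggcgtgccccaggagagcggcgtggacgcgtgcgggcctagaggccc
ERCC4: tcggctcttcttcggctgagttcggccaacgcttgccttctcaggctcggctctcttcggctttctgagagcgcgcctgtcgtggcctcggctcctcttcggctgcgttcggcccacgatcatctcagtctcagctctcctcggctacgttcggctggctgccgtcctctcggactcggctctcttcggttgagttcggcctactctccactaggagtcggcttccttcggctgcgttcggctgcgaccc
BRIP1: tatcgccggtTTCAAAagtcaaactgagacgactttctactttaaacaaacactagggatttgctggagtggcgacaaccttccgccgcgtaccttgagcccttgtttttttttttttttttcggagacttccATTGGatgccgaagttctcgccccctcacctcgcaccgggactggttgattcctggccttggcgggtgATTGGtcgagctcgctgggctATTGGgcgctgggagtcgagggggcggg
The RAD50 window holds 2 ETS motifs, whose first letters lie 155 and 91 bases before the start. The BRIP1 window holds 3 NF-Y motifs, at 117, 49 and 28 bases, and 1 CHR motif at 240 bases. In the ERCC4 window none of these letters occurred.

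Of the 36 members, 33 had a promoter in the RefSeq table, and 1 start per member was searched. The ETS motif was in 10 of the 33 (30.3%), against 8.52% of all 35116 promoters of the table and 10.7% of the 22198 promoters of coding genes. By call, it was in 3 of the 6 genes that fell (RAD50, ATM and PALB2), in 0 of the 7 with an entry that rose, and in 7 of the 20 that were not called, among them FANCD2, BRCA2 and ATR. The NF-Y motif was in 13 members (39.4%) against 32.0% of all and 32.7% of coding promoters, and the CHR motif in 5 (15.2%) against 14.3% and 12.1%. An E2F motif (TTTCGCGC or TTTGGCGC) was in 1 member, FANCC (3.03%), against 0.97% of all and 1.27% of coding promoters, and the NRF1 motif in 0 members, 1.03% of all and 1.28% of coding promoters. These matches are descriptions of letters, and nothing here measured binding.

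Among the genes of break sensing and checkpoint signalling, 3 fell, 2 rose and 1 was not called, with a median log2 difference of -0.12. By the same call, 13.5% of all genes fell and 28.0% rose. RAD50, the coiled-coil ATPase that tethers broken ends, measured 16.0, 15.6 and 15.2 TPM in sgSETD1A replicates 1 to 3, against 29.9, 30.6 and 29.5 TPM in sgEmpty. The groups lay far apart, and sgSETD1A averaged 52.0% of the sgEmpty level. The log2 difference was -0.90 (SE 0.049; limma adjusted p = 4.25e-06), and over the libraries left out in turn the adjusted p ran from 8.80e-06 to 7.19e-05. NBN, the subunit that links the same complex to ATM, measured 88.3, 83.5 and 85.2 TPM in sgSETD1A and 73.0, 74.8 and 76.1 TPM in sgEmpty. All sgSETD1A libraries lay above all sgEmpty libraries, and NBN rose by 0.20 log2 (SE 0.039; limma adjusted p = 0.00378). Thus RAD50 and NBN, partners in 1 complex, were called in opposite directions.

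ATM, the kinase activated by double-strand breaks, measured 5.21, 4.35 and 4.70 TPM in sgSETD1A and 5.24, 6.62 and 6.33 TPM in sgEmpty. The highest sgSETD1A library lay just under the lowest sgEmpty library. ATM fell by 0.29 log2 (SE 0.098; limma adjusted p = 0.0365). That call ended without sgEmpty replicate 2 or 3 or sgSETD1A replicate 2 or 3 (limma adjusted p from 0.0848 to 0.132). CHEK1, the checkpoint kinase that ATR activates, measured 11.7, 13.98 and 11.6 TPM in sgSETD1A and 16.0, 13.89 and 14.5 TPM in sgEmpty. It was the 1 called member whose groups overlapped, since sgSETD1A replicate 2 lay above sgEmpty replicate 2. CHEK1 fell by 0.24 log2 (SE 0.083; limma adjusted p = 0.0445), a call that held when sgSETD1A replicate 2 was left out and ended without any other single library (limma adjusted p from 0.0543 to 0.146).

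TOPBP1, the scaffold that activates ATR, measured 28.9, 28.7 and 29.6 TPM in sgSETD1A and 25.5, 26.0 and 27.3 TPM in sgEmpty. Its groups did not overlap, and it rose by 0.14 log2 (SE 0.048; limma adjusted p = 0.0405). The rise was not called after either rescaling (limma adjusted p = 0.297 and 0.129), nor without sgEmpty replicate 1 or 2 or sgSETD1A replicate 2 or 3 (limma adjusted p from 0.0748 to 0.12). ATR itself averaged 15.0 ± 1.02 TPM in sgSETD1A and 15.0 ± 0.935 TPM in sgEmpty (SD, n = 3 each). Its log2 difference of 0.002 had a 95% interval from -0.15 to 0.16.

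**Figure D3:**
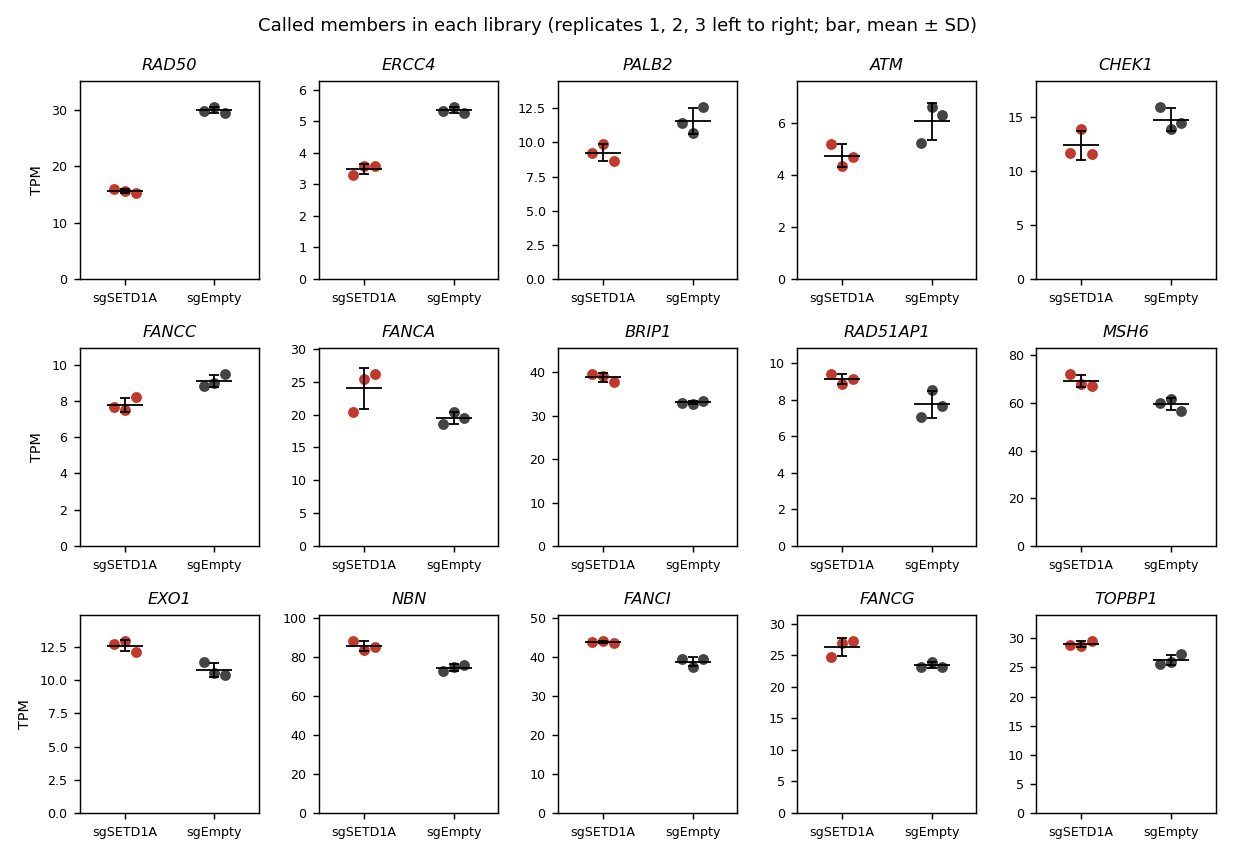
TPM of the 15 called members in each library (points, replicates 1 to 3 from left to right; long bar, mean; short bars, SD; n = 3 libraries in each group; each axis starts at 0). The groups are apart in 14 of the 15 genes, most widely in RAD50, and overlap in CHEK1.

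In end processing, ERCC4 fell, EXO1 rose and the other 4 of 6 members were not called, with a median log2 difference of 0.082. Over all genes the shares were 13.5% lower and 28.0% higher. ERCC4, also named FANCQ and XPF, is the nuclease subunit that cuts beside crosslinks. It measured 3.31, 3.60 and 3.58 TPM in sgSETD1A and 5.34, 5.46 and 5.26 TPM in sgEmpty. Each group was tight and the groups were apart, with sgSETD1A at 65.3% of the sgEmpty level. ERCC4 fell by 0.50 log2 (SE 0.075; limma adjusted p = 0.000893). SLX4, also named FANCP, the scaffold that holds ERCC4 at crosslinks, averaged 4.09 ± 0.234 TPM in sgSETD1A and 4.77 ± 0.218 TPM in sgEmpty. Its groups did not overlap, but its log2 difference of -0.18 was not called (limma adjusted p = 0.0908).

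EXO1, a nuclease that resects broken ends and also acts in mismatch repair, measured 12.7, 13.0 and 12.1 TPM in sgSETD1A and 11.4, 10.5 and 10.4 TPM in sgEmpty. All sgSETD1A libraries were higher, and EXO1 rose by 0.21 log2 (SE 0.062; limma adjusted p = 0.0224). Without sgEmpty replicate 2 or 3 or sgSETD1A replicate 2 this was no longer called (limma adjusted p from 0.0731 to 0.0763), nor after median-ratio rescaling or quantile normalization (limma adjusted p = 0.106 and 0.0897). The helicase BLM (log2 difference 0.17, 95% interval 0.01 to 0.32) and POLQ, the polymerase of microhomology-mediated joining (log2 difference 0.19, limma adjusted p = 0.0914), did not pass. RBBP8, which starts resection with the MRE11 nuclease, averaged 16.7 TPM in both groups, with a 95% interval of the log2 difference from -0.12 to 0.12.

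In the Fanconi core, 2 of 9 members rose, 1 fell and 6 were not called, with a median log2 difference of -0.034. All genes were called higher at 28.0% and lower at 13.5%. None of the 3 calls in the core held in every alternative. Leaving out sgSETD1A replicate 1 gave 2 members higher and 0 lower, leaving out sgSETD1A replicate 3 gave 0 higher and 1 lower, and leaving out sgEmpty replicate 2 gave 1 higher and 0 lower. With sgSETD1A replicate 2, or with sgEmpty replicate 1 or 3, left out, 0 were called. Calls over all 11885 genes varied too. Fits with a library left out gave 2352 to 3479 higher and 1289 to 1615 lower, against 3327 and 1605 with every library. FANCA, the core subunit that binds FANCG, measured 20.5, 25.4 and 26.2 TPM in sgSETD1A and 18.6, 20.4 and 19.4 TPM in sgEmpty. In sgSETD1A replicate 1 it was close to the highest sgEmpty library. FANCA rose by 0.28 log2 (SE 0.087; limma adjusted p = 0.0268). Leaving out sgEmpty replicate 1 or 3 or sgSETD1A replicate 2 or 3 ended the call (limma adjusted p from 0.0668 to 0.0941), as did median-ratio rescaling (0.0783) and quantile normalization (0.0558).

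FANCG, the adaptor subunit, measured 24.8, 26.9 and 27.3 TPM in sgSETD1A and 23.1, 24.0 and 23.2 TPM in sgEmpty. The groups were close but apart, and FANCG rose by 0.16 log2 (SE 0.053; limma adjusted p = 0.0366). It was called in 1 of the 6 fits with a library left out, that without sgSETD1A replicate 1, and in the others the limma adjusted p ran from 0.0671 to 0.124. Neither rescaling kept it (limma adjusted p = 0.223 and 0.111). FANCC, which sits with FANCE and FANCF in the core, measured 7.65, 7.49 and 8.20 TPM in sgSETD1A and 8.84, 8.96 and 9.49 TPM in sgEmpty. All sgSETD1A libraries were lower, and FANCC fell by 0.20 log2 (SE 0.066; limma adjusted p = 0.0353). With sgSETD1A replicate 3 left out it was still called, and with any other library left out its limma adjusted p ran from 0.0535 to 0.111.

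The other core members showed small differences. UBE2T, also named FANCT, was the most abundant of them, at 53.2 ± 3.46 TPM in sgSETD1A and 56.3 ± 0.789 TPM in sgEmpty (log2 difference -0.08, limma adjusted p = 0.226). The ligase FANCL averaged 24.4 ± 1.69 TPM in sgSETD1A and 22.1 ± 2.78 TPM in sgEmpty, and the translocase FANCM 5.55 ± 0.406 TPM in sgSETD1A and 5.15 ± 0.0784 TPM in sgEmpty. FANCB, FANCE and FANCF had log2 differences of -0.03, -0.12 and -0.13, and the widest of their 95% intervals, that of FANCE, ran from -0.38 to 0.14. FANCB had the lowest mean of all 36 genes, 2.75 TPM.

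FANCI and FANCD2, the pair that receives ubiquitin, had values on opposite sides of 0. FANCI measured 43.7, 44.1 and 43.4 TPM in sgSETD1A and 39.3, 37.4 and 39.3 TPM in sgEmpty. FANCD2 measured 12.9, 13.0 and 12.8 TPM in sgSETD1A and 14.2, 14.2 and 14.3 TPM in sgEmpty. Neither gene had overlapping groups, with FANCI higher and FANCD2 lower in each sgSETD1A library. FANCI rose by 0.17 log2 (SE 0.042; limma adjusted p = 0.0103), a call kept with each library left out and lost after median-ratio rescaling (0.0923). FANCD2 had a log2 difference of -0.13 (95% interval -0.25 to -0.01; limma adjusted p = 0.068), and passed as lower after the median-ratio (0.0159) and quantile (0.0261) methods.

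In the BRCA module, PALB2 fell, BRIP1 rose and 3 of 5 members were not called, with a median log2 difference of -0.093. The shares of all genes are again 13.5% lower and 28.0% higher. PALB2, also named FANCN, bridges BRCA1 and BRCA2. It measured 9.21, 9.86 and 8.61 TPM in sgSETD1A and 11.4, 10.7 and 12.6 TPM in sgEmpty. All sgSETD1A libraries were lower, and PALB2 fell by 0.30 log2 (SE 0.077; limma adjusted p = 0.0134). Only the fit without sgEmpty replicate 3 did not call it (limma adjusted p = 0.0516). BRIP1, also named FANCJ, is a helicase that binds BRCA1. It measured 39.7, 39.2 and 37.7 TPM in sgSETD1A and 33.0, 32.8 and 33.5 TPM in sgEmpty. The groups were apart, and BRIP1 rose by 0.23 log2 (SE 0.044; limma adjusted p = 0.00322).

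BRCA2, also named FANCD1, acts in strand exchange on resected DNA. It measured 4.62, 4.73 and 4.16 TPM in sgSETD1A and 4.84, 6.21 and 5.52 TPM in sgEmpty. The groups were apart by a narrow margin, and the log2 difference of -0.24 was not called (95% interval -0.45 to -0.03; limma adjusted p = 0.0665). Without sgEmpty replicate 1, which held the lowest sgEmpty value, BRCA2 was called lower (limma adjusted p = 0.0319). BRCA1 averaged 6.17 ± 0.714 TPM in sgSETD1A and 6.63 ± 0.525 TPM in sgEmpty, with a 95% interval of the log2 difference from -0.30 to 0.11. Its partner BARD1 averaged 8.61 ± 1.04 TPM in sgSETD1A and 8.60 ± 0.518 TPM in sgEmpty, with an interval from -0.20 to 0.20. Of the 4 long genes named above for CDK12, which were picked with their values known, FANCI was thus called higher with TPM as deposited, and BRCA1, ATR and FANCD2 were not called. Median-ratio rescaling ended the call of FANCI (limma adjusted p = 0.0923), and either rescaling made FANCD2 a called fall (0.0159 and 0.0261). CDK12 averaged 16.9 ± 0.713 TPM in sgSETD1A and 15.8 ± 0.432 TPM in sgEmpty (limma adjusted p = 0.211), and the related kinase CDK13 19.1 ± 1.01 TPM in sgSETD1A and 17.4 ± 0.58 TPM in sgEmpty (0.107).

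All 7 members that act in strand exchange beside the BRCA module, paralogues and motor proteins among them, had log2 differences above 0, with a median of 0.14. Of all 11885 genes, 7712 also lay above 0 with TPM as deposited. Of the 7 members, 1 was called with TPM as deposited and 0 after either rescaling, where RAD51C and RAD51D came to lie below 0. RAD51AP1, which stimulates strand exchange, measured 9.42, 8.87 and 9.14 TPM in sgSETD1A and 7.06, 8.52 and 7.64 TPM in sgEmpty. Its lowest sgSETD1A library lay above its highest sgEmpty library, and it rose by 0.22 log2 (SE 0.076; limma adjusted p = 0.0445). It was called when sgEmpty replicate 2 was left out, and with any other library left out the limma adjusted p ran from 0.0729 to 0.137. RAD54B, a motor protein of recombination, measured 13.3, 12.7 and 13.5 TPM in sgSETD1A and 12.4, 11.7 and 10.1 TPM in sgEmpty. The groups did not overlap, and the log2 difference of 0.20 was not called (limma adjusted p = 0.0618), except without sgEmpty replicate 1 (0.0349).

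The related motor RAD54L had a log2 difference of 0.17 (limma adjusted p = 0.158), called only without sgSETD1A replicate 1 (0.029), and XRCC3 one of 0.14 (limma adjusted p = 0.11), called only without sgEmpty replicate 3 (0.027). XRCC2, also named FANCU, which forms a complex with RAD51D, averaged 5.03 ± 0.317 TPM in sgSETD1A and 4.48 ± 0.141 TPM in sgEmpty, and RAD51D 8.13 ± 0.401 TPM in sgSETD1A and 7.85 ± 0.624 TPM in sgEmpty. RAD51C, also named FANCO, had by far the highest level of the 36 genes, at 266 ± 4.44 TPM in sgSETD1A and 256 ± 5.13 TPM in sgEmpty (SD, n = 3 each). Its groups did not overlap, but its log2 difference of 0.05 was within a 95% interval from -0.02 to 0.12.

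MSH6, which recognises mismatched bases, was the 1 member of mismatch repair. It measured 72.3, 68.1 and 67.3 TPM in sgSETD1A and 60.2, 61.8 and 56.8 TPM in sgEmpty. All sgSETD1A libraries were higher, and MSH6 rose by 0.21 log2 (SE 0.047; limma adjusted p = 0.00632). The call was kept with each library left out and after quantile normalization, and lost after median-ratio rescaling (limma adjusted p = 0.0537).

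Ratios between transcripts of partner proteins, or of proteins that act in related steps, were taken within each library, where the scaling of the library cancels. The 20 pairs were chosen after their values were seen, and with 3 libraries against 3 the smallest two-sided p of the exact permutation test is 0.1 (0.167 adjusted over the pairs), so that no pair could pass. The groups were apart in 12 of the 20 pairs, beside 53.7% of all genes for single levels. RAD50 stood at 0.182 ± 0.00391 of NBN in sgSETD1A and at 0.402 ± 0.0123 in sgEmpty (SD, n = 3 each), a log2 difference of -1.14, with groups apart. Against MRE11A, which encodes the nuclease MRE11, RAD50 stood at 1.89 ± 0.0404 in sgSETD1A and 4.09 ± 0.228 in sgEmpty, while the ratio of NBN to MRE11A, 10.4 ± 0.327 in sgSETD1A and 10.2 ± 0.273 in sgEmpty, overlapped between groups. In these pairs, chosen with values known, the ratio of RAD50 to each partner of its complex was lower in sgSETD1A than in sgEmpty.

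ERCC4 stood at 0.0625 ± 0.00235 of its obligate partner ERCC1 in sgSETD1A and at 0.0888 ± 0.00333 in sgEmpty, a log2 difference of -0.51. FANCD2 stood at 0.295 ± 0.000508 of FANCI in sgSETD1A and at 0.368 ± 0.0101 in sgEmpty, or -0.32 log2. ATM, a kinase separate from ATR, stood at 0.317 ± 0.00789 of ATR in sgSETD1A and at 0.404 ± 0.0242 in sgEmpty, or -0.35 log2. In each of these 3 pairs the groups were apart. The ratios of BRCA1 to BARD1 and of PALB2 to BRCA2 overlapped between groups, with log2 differences of -0.10 and -0.036.

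**Figure D4:**
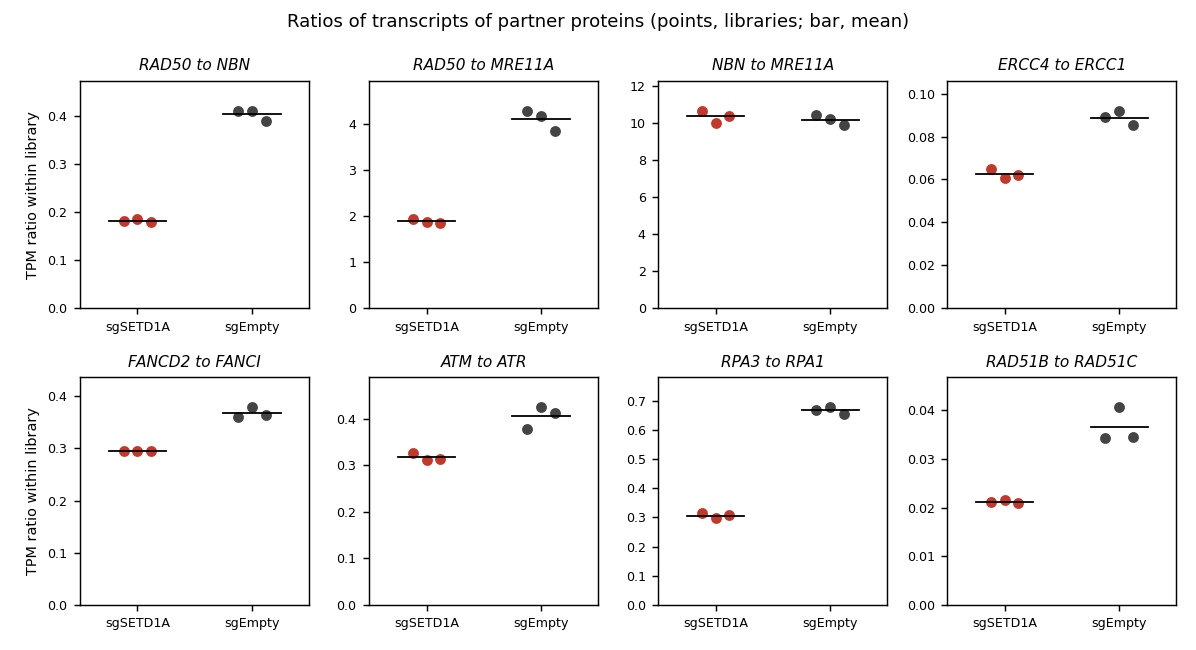
TPM ratio of 8 pairs of transcripts of partner or related proteins within each library (points, libraries; bar, mean; n = 3 in each group; each axis starts at 0), picked from the 20 computed after their values were seen. ATM and ATR are separate kinases. The groups are apart in 7 of those drawn, and the ratio of NBN to MRE11A overlaps, at means of 10.4 in sgSETD1A and 10.2 in sgEmpty.

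Other genes of the same pathways were read from lists, where the shares of all genes are again 28.0% higher and 13.5% lower. Of 20 other genes of homologous recombination, 2 rose and 7 fell in the deposited TPM. Median-ratio rescaling left 1 called higher and 11 lower (15.5% and 19.2% of all genes), and after quantile normalization 2 and 10 (18.0% and 17.3%). RPA3, the small subunit of the single-strand binding protein RPA, averaged 23.2 ± 1.44 TPM in sgSETD1A and 42.0 ± 0.751 TPM in sgEmpty (log2 difference -0.83, limma adjusted p = 9.01e-06). RAD51B, which binds RAD51C, averaged 5.63 ± 0.106 TPM in sgSETD1A and 9.35 ± 1.02 TPM in sgEmpty (-0.64, limma adjusted p = 0.000375). RECQL5, a DNA helicase, fell by 0.59 log2. RAD51B stood at 0.0212 ± 0.000382 of RAD51C in sgSETD1A and at 0.0365 ± 0.00362 in sgEmpty. RPA1, the large RPA subunit, rose by 0.26 log2 (limma adjusted p = 0.00101), so that RPA3 stood at 0.307 ± 0.00827 of RPA1 in sgSETD1A and at 0.667 ± 0.0121 in sgEmpty. The groups were apart in both ratios.

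Of 13 other Fanconi genes, 3 rose and 2 fell, and 2 were higher and 3 lower after either rescaling. FAN1, a nuclease that FANCD2 recruits, averaged 5.08 ± 0.3 TPM in sgSETD1A and 9.45 ± 0.625 TPM in sgEmpty (-0.78 log2, limma adjusted p = 8.19e-05), EME1, a partner of the nuclease MUS81, fell by 0.68, and C17orf70, now FAAP100, a core complex subunit, rose by 0.35. Of 16 other sensing and checkpoint genes, 4 rose and 4 fell, with HUS1, a subunit of the checkpoint clamp, higher by 0.41, the ubiquitin ligase RNF8 higher by 0.40, and MDC1, the scaffold at breaks, at -0.34 log2. The lower calls of this list were 4 under both rescalings, and the higher calls 2 by the median-ratio and 3 by the quantile method.

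**Figure D5:**
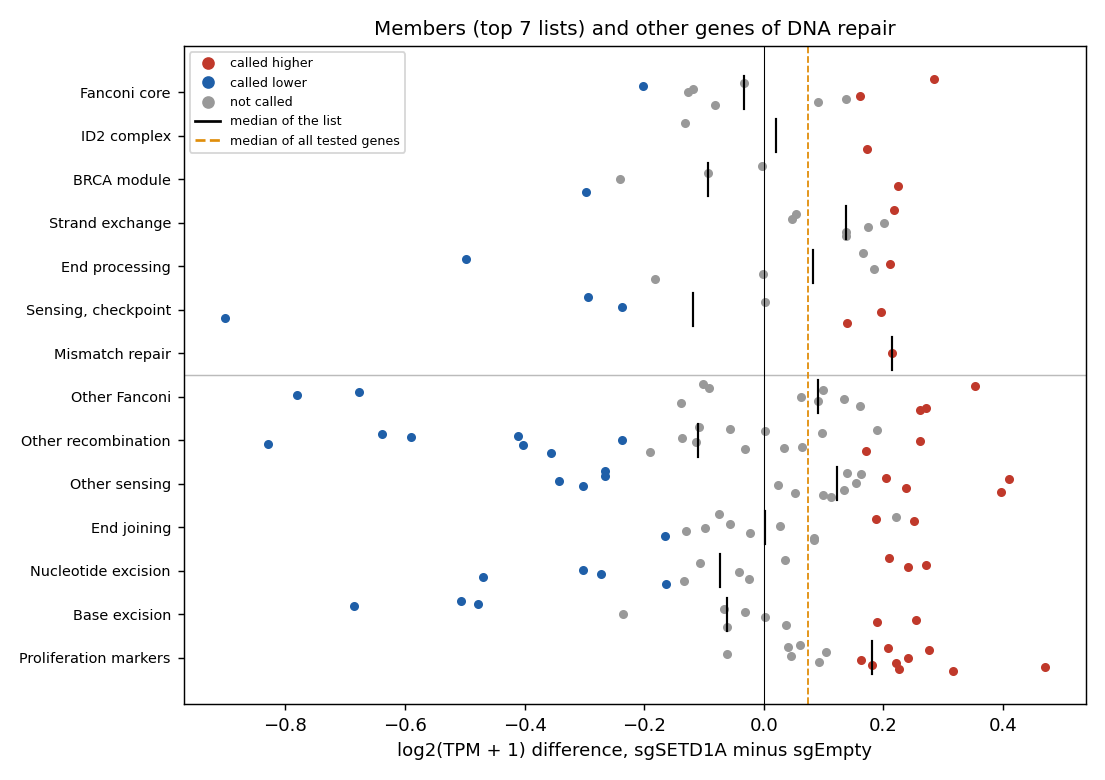
Log2 difference, sgSETD1A minus sgEmpty, of every tested gene in the 7 sub-pathways of the members (above the line), in 6 other repair lists and among 15 proliferation markers (points, genes; tick, median of the list; dashed line, median of all tested genes, 0.073). Most lists hold genes on both sides of 0, and the proliferation markers hold 9 called higher and 0 called lower.

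Most of the called proliferation markers were higher in sgSETD1A. Of 15 markers, 9 rose and 0 fell in the deposited TPM, 4 were higher and 1 lower after median-ratio rescaling, and 8 were higher and 0 lower after quantile normalization. The shares of all genes called higher were 28.0%, 15.5% and 18.0% under these scalings. The summed level of the markers was 1274 to 1293 TPM in sgSETD1A libraries and 1137 to 1147 TPM in sgEmpty libraries, and RRM2, a ribonucleotide reductase subunit, rose by 0.47 log2, the thymidylate synthase TYMS by 0.32 and the kinase CDK1 by 0.28. The part of these markers in the rises of the members was not tested.

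Reads of neighbouring genes may bear on some values, though no reads were examined. In RefSeq, 14 of the 36 members overlap another protein-coding gene, among them FANCA (ZNF276), FANCC (AOPEP), FANCI (POLG), ATM (C11orf65), CHEK1 (ACRV1) and MSH6 (FBXO11), and RAD50 overlaps the long noncoding RNA TH2LCRR. The library kit marks strand, but no source used here gives whether the counting used strand, so these values are uncertain to that extent. FANCD2, BRCA1, RAD51AP1 and RBBP8 have pseudogenes named after them that can share reads. Some members share a start region with a gene that runs the other way, within 1000 bases, and 7 of these neighbours were tested. PALB2, which fell, faces DCTN5, a dynactin subunit at 40.9 ± 0.78 TPM in sgSETD1A and 41.5 ± 1.24 TPM in sgEmpty (log2 difference -0.022, limma adjusted p = 0.717). ATM, which fell, faces NPAT, a regulator of histone genes at 5.55 ± 0.15 TPM in sgSETD1A and 5.14 ± 0.187 TPM in sgEmpty (0.093, limma adjusted p = 0.318). RAD51AP1, which rose, faces C12orf4, now FERRY3, which rose by 0.28 log2 (limma adjusted p = 0.0105). The other 4 face members that were not called with TPM as deposited. DNASE1, facing SLX4, fell by 0.43 log2 (limma adjusted p = 0.000812), NBR1, facing BRCA1, fell by 0.16 (0.0251), and ZFYVE21, facing XRCC3, rose by 0.23 (0.000778), each with the same sign as the member. MOSPD2, facing FANCB, was not called (log2 difference -0.18, limma adjusted p = 0.126). A single RefSeq start per gene was used. BRCA1 as annotated there also overlaps the noncoding gene NBR2, and neighbours at other BRCA1 starts were not examined.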

How the data were processed

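RNA of 3 sgSETD1A and 3 sgEmpty libraries was analysed; 2 libraries that count a pool of guides hold no guide against these genes and were not used. The authors deposited 1 table of TPM values per gene symbol. RSEM 1.3.1, STAR 2.6.0c, bcl2fastq 2.20.0 and the hg19 build are named, without roles, per the submitters' processing notes. A row with no gene name held 1000000, the total of the others in each library, and was left out. TPM keeps no depth, so depth is unknown and no count test was run. As groups hold 3 libraries, small differences may be missed.

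Genes with a mean of at least 1 TPM were compared on the log2(TPM + 1) scale by limma 3.58.1 (R 4.3.3), its variance trend switched on. This scale understates changes of low genes. The fit was also run on simulated data in which a small set of genes changed, with random signs. No shift common to many genes was put in, so that run does not bear on calls that depend on the scaling. P-values were adjusted by Benjamini-Hochberg over all 11885 genes and called under 0.05. Differences are sgSETD1A minus sgEmpty. Exact permutation tests used scipy 1.17.1. The 15 alternatives were pseudocounts of 0.1 and 5, no filter and a filter at 5 TPM, both rescalings, limma without trend and with robust variances, a replicate block, and each library left out.

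Members and lists were chosen with earlier results of these data known. By rule, values per library are given for called members and for the 2 of largest change in each sub-pathway, and other lists are represented by their 3 called genes of largest change, SETD1A, CCNK, CDK12 and CDK13 as checks. MRE11A, ERCC1, RPA1 and the neighbouring genes were named after their values were seen. Promoters are from RefSeq (GRCh38.p14), with no coordinates carried over to hg19. Of the 19035 symbols, 16921 are current in RefSeq, 1897 matched as synonyms and 217 did not match; all 36 member symbols are current. The list of other mismatch repair genes is an exception to the rule and is not reported here, nor are some single genes of other lists.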

Additional observations from a re-analysis of the deposited data

How the results depend on the processing

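Members called higher numbered 9 in the deposited TPM, 2 after median-ratio rescaling, 4 after quantile normalization and 4 to 9 with 1 library left out. Members called lower numbered 6, against 10 after median-ratio rescaling, 3 without a filter on low TPM and 2 to 5 with 1 library left out. Their median log2 difference was 0.051, against -0.019 after median-ratio rescaling, -0.021 after quantile normalization, 0.073 with the filter at 5 TPM (30 members tested, by construction) and 0.036 to 0.077 with 1 library left out. The cause of the other shifts was not tested. Counts higher and lower were 9 and 4 without sgSETD1A replicate 1, which stands apart, 4 and 4 without sgSETD1A replicate 2, 5 and 4 without sgSETD1A replicate 3, and with sgEmpty replicate 1, 2 or 3 left out they were 6 and 5, 6 and 3, or 6 and 2. In these fits the calls over all 11885 genes moved too, from 3327 higher and 1605 lower with every library. Dropping the sgSETD1A library that stands apart gave 3479 and 1615. Dropping any other library gave 2352 to 2800 higher and 1289 to 1385 lower. The member counts alone therefore do not show a loss of calls particular to the members. No such count over all genes is given for the unfiltered or block fits. Calls of ATM, CHEK1, FANCA, FANCC and RAD51AP1 ended without a filter (limma adjusted p from 0.0557 to 0.0945), and those of FANCA and CHEK1 without the variance trend (0.0501 and 0.0619), where BLM, FANCD2, POLQ and SLX4 became called (0.0329 to 0.045). Both pseudocounts and robust variances changed no member's call. Deviations of same-numbered libraries from their group means correlated at 0.0845, -0.104 and 0.169 across genes, and only replicate 3 of sgSETD1A correlated best with its own number. With 3 libraries a group, such values cannot show whether same-numbered libraries were paired. A fit with a replicate block called 6 members higher and 4 lower, with a median of 0.051. In it ATM, CHEK1, FANCG, RAD51AP1 and TOPBP1 lost their calls (limma adjusted p from 0.0504 to 0.0668). Of 534 member values over the alternatives, 14 changed sign, none of them of a called member. With unknown depth and 3 libraries a group, the counting noise of members under 5 TPM (6 of 36) could not be judged. FANCE, among them, had the highest standard error of all members (0.116). ERCC4, also among them, kept its call in every alternative that tested it.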

Other observations

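Repair routes outside the listed genes also held called genes in both directions with TPM as deposited, where 28.0% of all genes were called higher and 13.5% lower. Of 11 base excision repair genes, 2 rose and 3 fell, and after either rescaling 0 were higher and 3 lower. APEX1, the main endonuclease for abasic sites, averaged 233 ± 3.99 TPM in sgSETD1A and 332 ± 8.48 TPM in sgEmpty (SD, n = 3 each; log2 difference -0.51, limma adjusted p = 8.16e-06). The glycosylase genes MUTYH and MPG fell by 0.69 and 0.48 log2 (limma adjusted p = 0.000161 and 3.13e-05). These 3 falls were called under each scaling.

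Of 12 nucleotide excision repair genes, 3 rose and 4 fell, while quantile normalization gave 3 higher and 4 lower and median-ratio rescaling 3 higher and 6 lower. KIAA1530, now UVSSA, which acts when repair is coupled to transcription, averaged 4.46 ± 0.374 TPM in sgSETD1A and 6.55 ± 0.217 TPM in sgEmpty (-0.47 log2, limma adjusted p = 0.00162). ERCC5, a nuclease, and ERCC8, which also acts in the coupled route, fell by 0.30 and 0.27 log2 (limma adjusted p = 0.0252 and 0.03). With 1 library left out, 3 genes of this list were higher and 1 to 3 lower, so that these 2 falls did not both hold throughout. Calls over all genes then ran from 1289 to 1615 lower, against 1605 with every library. Of 12 end joining genes, 2 rose and 1 fell, and 1 was higher and 1 lower after either rescaling. LIG4, the ligase of classical end joining, rose by 0.25 log2 (limma adjusted p = 0.00757), while its partner XRCC4 fell by 0.16 and LIG3 rose by 0.19 (limma adjusted p = 0.0452 and 0.0455), neither by a call that held with each library left out.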
